A study of Mus musculus with 88 samples.

Results

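The genes described here encode the proteins of the cytosolic ribosome. They were taken from the probe annotation of the array platform by symbol: every gene named Rpl or Rps with a digit, together with the stalk proteins Rplp0 to Rplp2 and Rpsa, without the Rps6 kinases and without pseudogene symbols. This gave 70 genes on 71 probes, of 10518 genes with at least 1 value on the arrays, and 24 of them belong to the small and 46 to the large subunit. The study exposed RAW 264.7 cells, an established mouse macrophage line, for 1, 2 or 4 h to 5 treatments. These were lipopolysaccharide (LPS, 100 ng/ml), a bacterial ligand of Toll-like receptor 4, isoproterenol (ISO, 50 nM), an agonist of beta-adrenergic receptors, prostaglandin E2 (PGE2, 10 µM), and LPS given together with ISO or with PGE2. The labels name 100 pM lipid binding protein beside LPS where it was given alone, and do not name it for the combinations. Each array set RNA of treated cells against RNA of cells left in medium for the same time, in 2 colours. The 88 arrays form 44 dye-swapped pairs: 15 groups with 3 sets each, except PGE2 at 1 h with 2. All samples come from 1 line, and nothing in the labels says that the sets are separate cultures, so the p-values below speak only of how far sets vary, possibly for technical reasons.

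The cytosolic ribosome is built from ribosomal RNAs and a nearly fixed set of proteins. The mRNAs of these proteins are among the most abundant of a growing cell. Most of them begin with a tract of pyrimidines, the terminal oligopyrimidine (TOP) element, through which the mTOR pathway sets how much of them is translated, so that output can change while the amount of mRNA does not. Arrays such as these measure the amount of mRNA and say nothing of its translation.

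The sequences around the annotated transcription start are shown first because the pyrimidine tract is a feature most of these mRNAs are known for and the choice by symbol did not use it. RefSeq windows of build GRCm38.p6 were at hand for 58 of the 70 genes. Each line gives 20 bases before and 10 from the start onward, in the direction of the gene, with the longest unbroken run of C and T in capitals. The first 4 are members that were not called in any comparison with medium and the last 6 are members that were. All 10 were picked after their values were known. The 4 uncalled examples all carry a run of at least 8 pyrimidines, which 20 of the 48 uncalled members with a window had. They therefore do not represent the uncalled members. Of these examples, Rps6 and Rps18 held a value on 1 and 17 arrays, so their lack of a call says little.

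Rpl14, chr9:120571497-120571526, plus strand: cggcagggcgggCCCTCTCTCTTCTCgctg
Rpl28, chr7:4792945-4792974, plus strand: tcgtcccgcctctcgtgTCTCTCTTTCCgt
Rps18, chr17:33955656-33955685, minus strand: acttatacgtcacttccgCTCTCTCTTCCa
Rps6, chr4:86857358-86857387, minus strand: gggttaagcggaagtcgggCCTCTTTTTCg
Rps10, chr17:27635235-27635264, minus strand: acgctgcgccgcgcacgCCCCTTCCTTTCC
Rps24, chr14:24490658-24490687, plus strand: acgcccccgcgctggggTCCTTCCTTgcgc
Rps27l, chr9:66946066-66946095, plus strand: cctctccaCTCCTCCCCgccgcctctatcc
Rps3, chr7:99483700-99483729, minus strand: gaacaCTTgcaagggtcgccgcgctgcgcg
Rpl24, chr16:55966255-55966284, plus strand: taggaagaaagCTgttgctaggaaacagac
Rpl7l1, chr17:46782647-46782676, minus strand: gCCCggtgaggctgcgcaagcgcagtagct

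Rps10, Rps24 and Rps27l carry a long tract, whereas Rps3, Rpl24 and Rpl7l1 do not in these windows. That of Rps27l, 9 bases long from position −12, ends before the annotated start. A run of at least 8 pyrimidines lay in the 30 bases of 24 of the 58 members (41.4%), against 14.5% of the 27025 genes of the table and 16.1% of 56 mitochondrial ribosomal protein genes. Among members called at least once against medium it was found in 4 of 10, and among the others in 20 of 48. Such a run may lie before the start, outside the mRNA, so these are not shares of mRNAs that begin with a tract. The motifs below were searched on both strands of the whole window of 300 bases, 250 before the start and 50 after it. The motif of ETS family factors, CCGGAAG, was found for 24 of 58 members (41.4%), 20 of the 56 mitochondrial ribosomal protein genes (35.7%) and 9.93% of all genes. The E-box CACGTG was found for 6 members (10.3%, mitochondrial 3.57%, all genes 8.09%) and the core of the cyclic AMP response element, TGACGT, for 10 (17.2%, mitochondrial 7.14%, all genes 8.37%). These are matches of letters, and a start that is annotated a few bases off moves a tract out of its place. Where a gene has several windows, the best match counted.

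**Figure D1:**
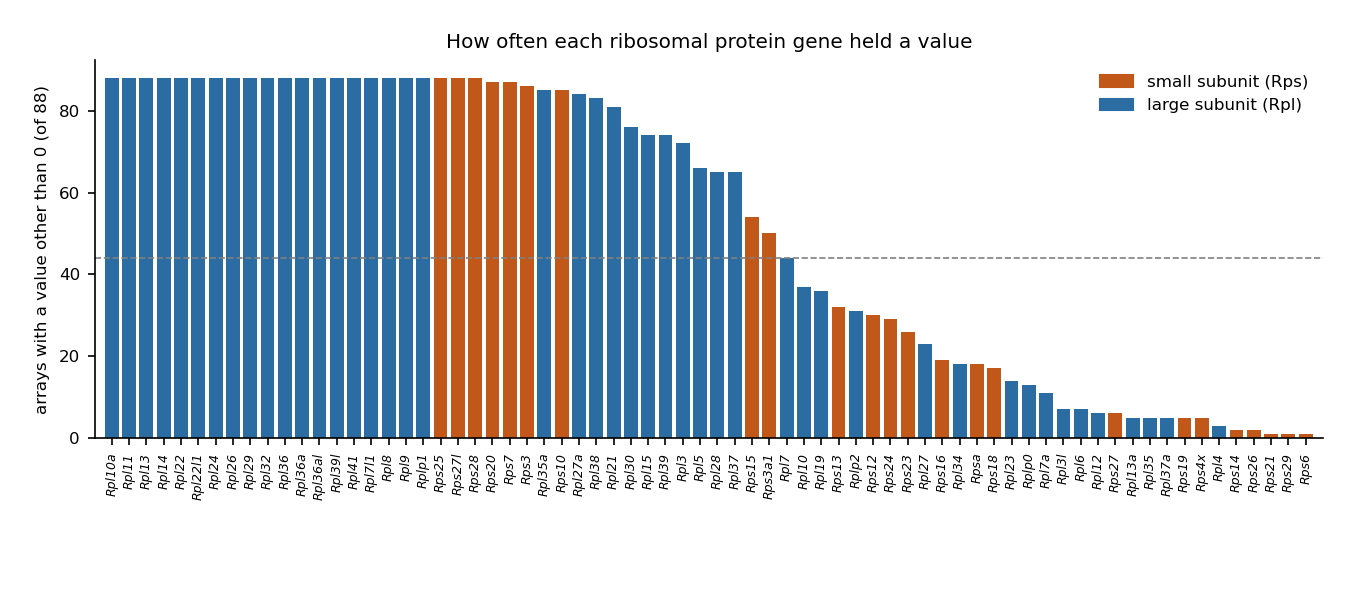
Number of arrays, of 88, on which each of the 70 genes held a value other than exactly 0, in falling order, with small subunit genes in orange and large subunit genes in blue. The dashed line marks 44 arrays, and 40 of the 70 genes reach it.

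Ribosomal protein genes held a value less often than other genes did. The deposited table holds log2 ratios, in which many entries are exactly 0, and the meaning of such a 0 was not given in the sources used here. Members were at 0 in 41.3% of their entries and all probes in 27.4%. As the plot of arrays per gene shows, 22 of the 70 members (31.4%) had a value other than 0 on every array, against 49.4% of all genes, and 15 members (21.4%) had a value on at most 10 arrays, against 5.4% of all genes. The small subunit was the more sparsely covered: 9 of 24 small and 31 of 46 large subunit genes held a value on at least 44 arrays. The mitochondrial ribosomal proteins, which are encoded in the nucleus and serve another ribosome, reached that mark in 59 of 62 genes.

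Some of the best known members were among those seldom measured. Rps6, the S6 kinase substrate whose phosphorylation is a common readout of mTOR activity, had a value on 1 array. Rpl13a, which in human monocytes leaves the ribosome to silence inflammatory mRNAs, had values on 5 arrays and Rps19, the gene most often mutated in Diamond-Blackfan anaemia, also on 5. Rplp0, the stalk scaffold often used as a reference gene, had a value on 13 arrays and Rpsa, the laminin receptor precursor, on 18, all from 1 of its 2 probes. The other abundant mRNAs Tpt1 (1 array), Lyz2 (6 arrays) and Eef1a1 (21 arrays) were likewise at 0 on most arrays. Ratios carry no signal level, so how bright these probes were is unknown here, and for such genes a mean near 0 does not describe a response. Ribosomal proteins also have many processed pseudogenes and near-identical copies that can share a probe, so each value may hold signal from more than 1 locus.

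The direction of the ratio is likely rather than stated: read as Cy5 over Cy3 and turned to treated over medium, the median of 21 genes known to be induced by LPS exceeded 0 on each of the 18 arrays of cells given LPS without another ligand (1.60 to 3.25). The log2 scale was read from the largest value, 6.64, the log2 of 100, and how the arrays were centred is unknown. The labelled cell type cannot be checked against its markers from ratios alone. With LPS at 4 h, 6 of 13 macrophage marker genes were called higher and 1 lower, and of 23 markers of other cell types 1 was called, Kdr at 2.22, where 14.3% of all genes were called higher and 16.4% lower. The part of such shifts in the values of the members was not tested.

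Most means of the members lay close to 0, as did most means of all genes. Of the 600 means of the 40 members with a value on at least 44 arrays, in 15 groups, 582 (97.0%) lay within 0.25 of 0 on the log2 scale (1.19-fold), against 83.8% of the means of all genes measured as often. Over all 70 members it was 1032 of 1050 (98.3%, all genes 86.6%), which takes in the genes at 0 on most arrays. The highest mean was 0.38 and the lowest −0.32. These shares were not tested against each other. The 2 arrays of a pair often disagreed on the 22 members with a value on every array. In 26 of 44 pairs their median distance from the pair mean exceeded the median size of that mean. In the median pair 12 of the 22 members had the same sign on both arrays. Over all probes, the arrays of a pair correlated below 0 in 10 of 17 pairs without LPS and in 0 of 27 with it. A difference was called where the adjusted p of limma (Benjamini-Hochberg over all 10518 genes) was under 0.05. The fit takes the 44 pair means as independent, although those of the same set number and time deviated together. Its p-values against medium may therefore be too small. Over the 15 groups 31 values of 15 genes were called, 23 higher and 8 lower than medium, all of them with LPS alone or in combination, and 55 genes were never called. With the set number within each time as a replicate block, an alternative chosen after the values were seen, more members passed: 22 values with LPS, 16 with LPS+ISO and 13 with LPS+PGE2 in place of 14, 10 and 7, and also 4 with ISO and 2 with PGE2. That fit takes the deviation shared by sets of 1 number at a time out of the spread. Its p-values against medium thus leave out part of how far sets vary. More of all genes passed too, with ISO at 4 h 11.2% in place of 3.36%. Of the 4 uncalled genes whose starts are shown above, Rpl14 passed in this fit at 4 h with LPS (0.15, adjusted p = 0.0149), LPS+ISO (0.16, 0.00812) and LPS+PGE2 (0.15, 0.0133). For the 40 members with a value on at least 44 arrays, the 95% confidence interval of a group mean reached 0.157 to either side in the median, so changes smaller than that could mostly not be told from 0.

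**Figure D2:**
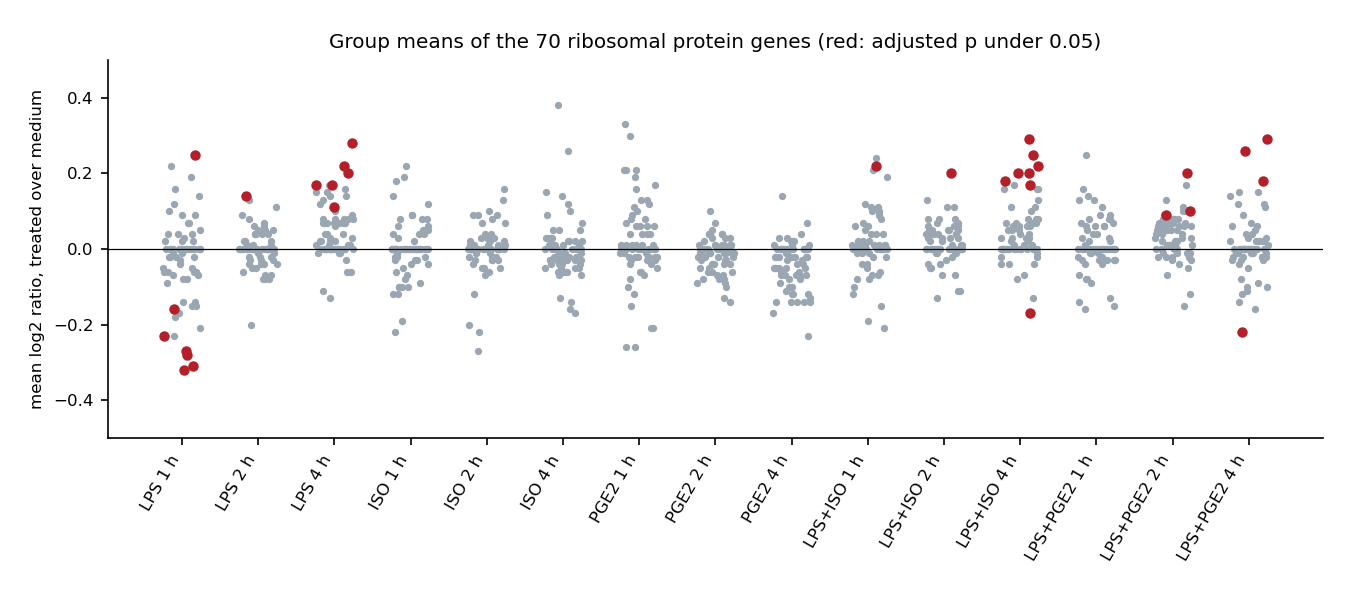
Mean log2 ratio, treated over medium, of each of the 70 ribosomal protein genes in the 15 groups, with called values in red. Most points lie within 0.25 of 0, and red points, from the fit without a replicate block, occur only in groups that received LPS.

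With LPS alone, 6 members were higher at 4 h and none was lower, and the changes were between 1.08- and 1.21-fold. This was 8.57% of the 70 members called higher, against 14.3% of all genes called higher and 16.4% called lower at that time. Among members with a value on at least 44 arrays it was 5 of 40 higher and 0 lower, against 17.3% and 20.0% of the 8553 genes measured as often. The median of these 40 members was 0.075, and that of the 8553 genes −0.013. All 40 had means between −0.13 and 0.28. LPS targets, for comparison, reached 5.22 for Il1b.

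Rpl32, a protein of the large subunit, showed the largest increase with LPS. Its log2 ratios with LPS at 4 h were 0.27, 0.25 and 0.32 in sets 1 to 3. All sets lay above those of PGE2 at 4 h, at −0.02, 0.10 and 0.01, and above those of ISO, at 0.09, 0.13 and 0.09. The mean with LPS was 0.28 ± 0.0367 (SD, n = 3), which is 1.21-fold (adjusted p = 1.62e-05 in the limma fit), and the call held without any 1 set (adjusted p from 6.07e-05 to 0.00903). At 2 h the sets stood at 0.06, 0.14 and 0.22 and the mean was 0.14 (adjusted p = 0.0412), a call lost without set 2 (0.179) or set 3 (0.505). At 1 h they stood at 0.05, 0.12 and 0.19, with a mean of 0.12 that was not called (adjusted p = 0.128). The F test between the 3 times did not pass for LPS alone (adjusted p = 0.181).

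Rpl32 was also called at 2 and 4 h in both combinations. With LPS+ISO at 4 h its sets were at 0.38, 0.26 and 0.22, with a mean of 0.29 ± 0.0805 (SD, n = 3, adjusted p = 1.1e-05 in the limma fit). With LPS+PGE2 they were at 0.39, 0.26 and 0.22, with a mean of 0.29 ± 0.0869 (adjusted p = 9.67e-06). At 2 h the means were 0.20 in both (adjusted p = 0.00291 and 0.00348), and without set 3 neither was called (0.203 and 0.107). The 3 comparisons at a time were all made against medium at that time, and whether they share medium RNA is not stated. In the fit without a replicate block, the combinations differed from LPS alone at 4 h by 0.01 each, with 95% confidence intervals from −0.13 to 0.15.

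**Figure D3:**
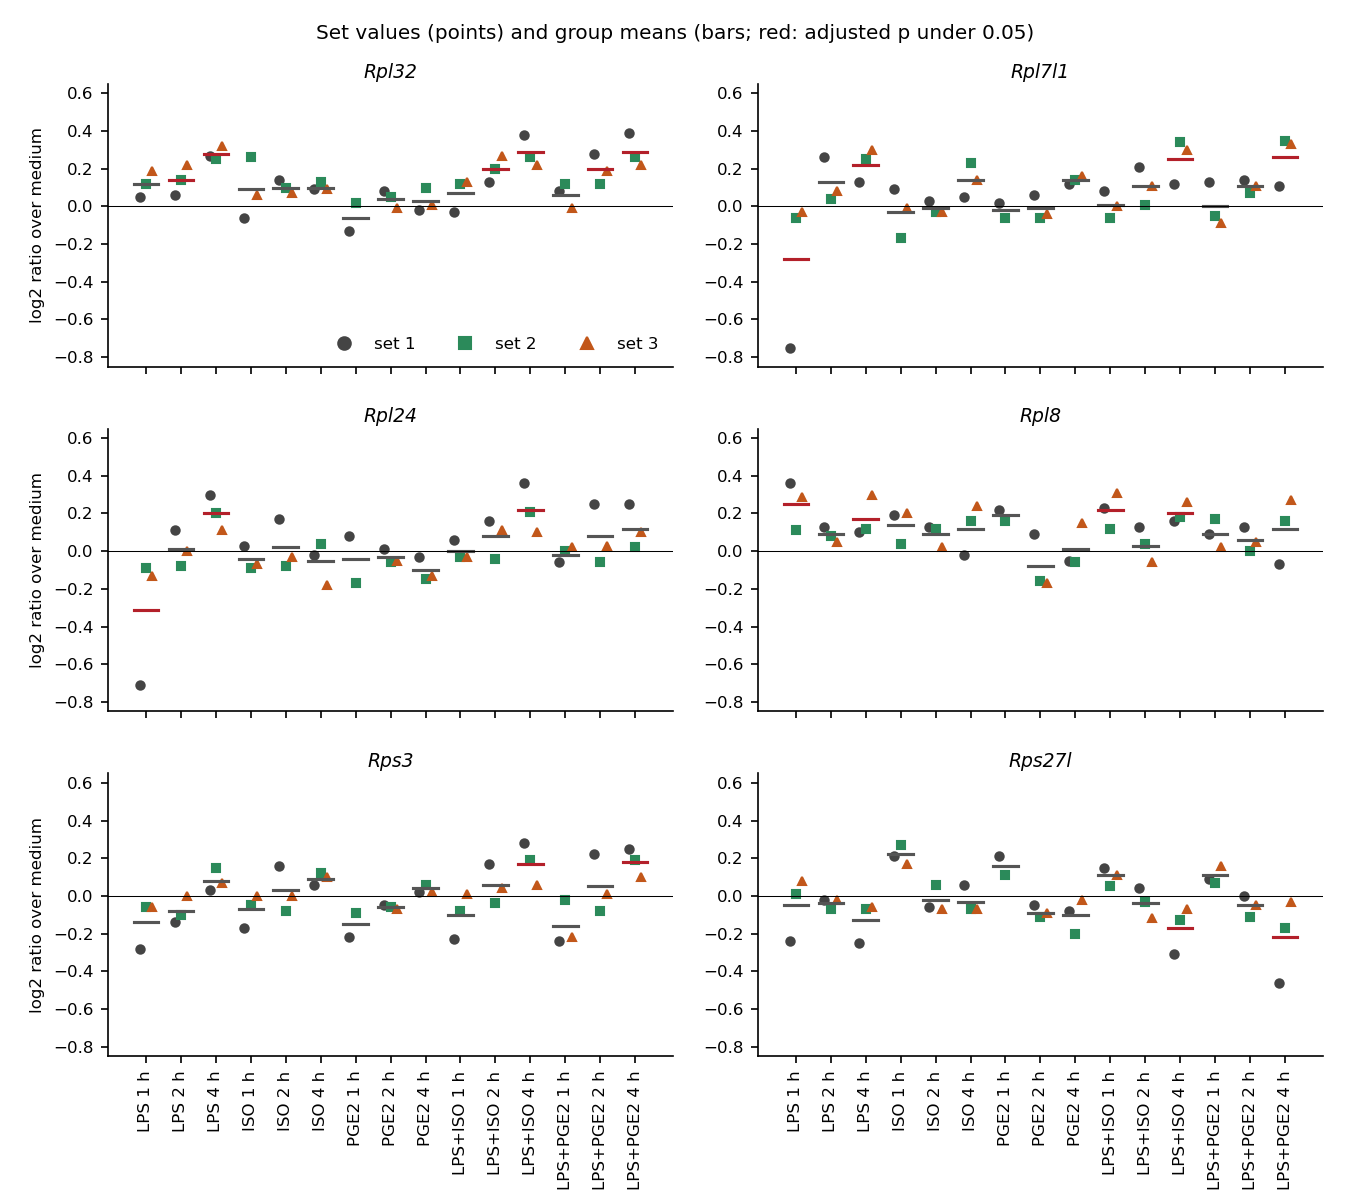
Log2 ratio, treated over medium, of 6 ribosomal protein genes in each set (points) and the mean of each group (bars, red where the adjusted p is under 0.05). Rpl32 lies above 0 in every set of the 4 h groups with LPS. Rps27l lies below 0 there and above 0 at 1 h with ISO, PGE2 and both combinations. Set 1 of LPS at 1 h stands far below the other sets for Rpl7l1 and Rpl24.

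Rpl7l1 and Rpl24 were also higher at 4 h. Rpl7l1 is a paralog of Rpl7 that acts in ribosome assembly, and its sets were at 0.13, 0.25 and 0.30 with LPS. Its mean of 0.22 ± 0.0848 (SD, n = 3, adjusted p = 0.0271 in the limma fit) stood beside means of 0.25 with LPS+ISO (adjusted p = 0.0124) and 0.26 with LPS+PGE2 (adjusted p = 0.0088). All 9 of these sets were positive, from 0.11 to 0.35. Without set 2 or set 3 none of these 3 calls held (adjusted p from 0.187 to 0.331), and without set 1 all 3 did. Its parent Rpl7, with a value on 44 arrays, was not called in any group. Rpl24, which forms a bridge between the subunits, stood at 0.30, 0.20 and 0.11 with LPS at 4 h, a mean of 0.20 ± 0.0947 (adjusted p = 0.0452), and at 0.36, 0.21 and 0.10 with LPS+ISO, a mean of 0.22 (adjusted p = 0.026). With LPS+PGE2 its sets were at 0.25, 0.02 and 0.10 and it was not called. Both calls of Rpl24 were lost without set 2 (adjusted p = 0.2 and 0.135) or set 3 (0.15 and 0.0916). Set values are means of 2 arrays, and single arrays spread more widely. The 6 arrays of LPS at 4 h ran from −0.28 to 0.68 for Rpl24 and from −0.04 to 0.44 for Rpl7l1. For Rpl32 they ran from 0.13 to 0.43.

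Rpl8, which lies close to the peptidyl transferase centre, and Rplp1, an acidic protein of the stalk that recruits elongation factors, completed the large subunit genes called at 4 h. Rpl8 stood at 0.10, 0.12 and 0.30 with LPS (mean 0.17, adjusted p = 0.0283) and at 0.16, 0.18 and 0.26 with LPS+ISO (mean 0.20, adjusted p = 0.0116), but at −0.07, 0.16 and 0.27 with LPS+PGE2, where it was not called. It was already called at 1 h with LPS, at 0.36, 0.11 and 0.29 (mean 0.25, adjusted p = 0.00538), and with LPS+ISO, at 0.23, 0.12 and 0.31 (mean 0.22, adjusted p = 0.0174). Its means at 1 h with ISO (0.14) and PGE2 (0.19) were positive too and were not called, but passed with the set number within each time as a replicate block (adjusted p = 0.0386 and 0.0273). Without 1 set the calls of Rpl8 gave adjusted p from 0.0138 to 0.369, and each was lost without set 3. Rplp1 was at 0.20, 0.18 and 0.13 with LPS (mean 0.17, adjusted p = 0.0469) and at 0.35, 0.16 and 0.10 with LPS+ISO (mean 0.20, adjusted p = 0.0168). Both calls were lost without set 2 (0.257 and 0.0945) or set 3 (0.182 and 0.0637).

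Small subunit genes made up the rest. Rps24 was called with LPS at 4 h (mean 0.11, adjusted p = 0.0417) on sets at 0.18, 0.16 and 0.00. It had a value on 29 of 88 arrays and on 3 of the 6 arrays of that group, which ran from −0.21 to 0.53. Without set 1 or 2 the call was lost (0.241 and 0.276). Rps10, whose ubiquitination marks stalled ribosomes, was called in 1 group, LPS+ISO at 4 h, at 0.32, 0.13 and 0.11 (mean 0.18, adjusted p = 0.0218). Its sets with LPS were at 0.06, 0.13 and 0.04. Without set 2 or 3 its call was lost (0.0645 and 0.127). Rps3, a protein of the mRNA entry channel that can also bind the NF-kB subunit p65, stood at 0.28, 0.19 and 0.06 with LPS+ISO (mean 0.17, adjusted p = 0.0168) and at 0.25, 0.19 and 0.10 with LPS+PGE2 (mean 0.18, adjusted p = 0.0135). With LPS alone it stood at 0.03, 0.15 and 0.07, which was not called. The first call of Rps3 was lost without set 1 or 2 (0.0521 and 0.129), and the second without set 2 or 3 (0.103 and 0.0617).

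Rps27l was the 1 member called lower at 4 h. This paralog of Rps27 is a target of p53. With LPS+PGE2 at 4 h its sets lay at −0.46, −0.17 and −0.03, a mean of −0.22 ± 0.218 (SD, n = 3, adjusted p = 0.00299 in the limma fit), and with LPS+ISO at −0.31, −0.13 and −0.07, a mean of −0.17 (adjusted p = 0.022). With LPS alone it was at −0.25, −0.07 and −0.06 and was not called (adjusted p = 0.103). In each of these groups set 1 was the lowest. Without set 1 or 2 neither call held (0.0995 to 0.138 with LPS+ISO, 0.104 and 0.0506 with LPS+PGE2). At 1 h the same gene stood above 0 with ISO in every set, at 0.21, 0.27 and 0.17, with a mean of 0.22 that narrowly missed the threshold (adjusted p = 0.0629). With PGE2 at 1 h it was at 0.21 and 0.11 (adjusted p = 0.481). In both combinations at 1 h it also lay above 0 on every array and was not called. The arrays ran from 0.02 to 0.20 with LPS+ISO, from 0.06 to 0.22 with LPS+PGE2 and from −0.35 to 0.11 with LPS alone. The ISO value passed where the set number was a replicate block (adjusted p = 0.05 after rounding up, and 0.0163 with the block within each time), where a dye term was fitted (0.0214) and without set 1 (0.0183). Its parent Rps27 had a value on 6 arrays.

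Members with roles outside the ribosome, and paralogs beside their parents, made up the rest and were not called. Rpl5 and Rpl11, which bind Mdm2 when ribosome assembly is disturbed, stayed between −0.06 and 0.02 (Rpl5, value on 66 arrays) and between −0.02 and 0.07 (Rpl11, value on 88 arrays) in all 15 groups. Rpl22l1, a paralog of Rpl22, ranged over the 15 groups from −0.20 to 0.21 and its parent from −0.15 to 0.09. Rpl39l, known from male germ cells, ranged from −0.26 to 0.04 and Rpl39 from −0.09 to 0.17. Rpl36al ranged from −0.23 to 0.17. Rpl3l, the striated muscle counterpart of Rpl3, had a value on 7 arrays and Rpl10 on 37. None of these passed the limma test in any group (the lowest adjusted p among them was 0.143, for Rpl36al with LPS at 1 h). With the block within each time Rpl39l passed at 1 h with ISO (−0.22, adjusted p = 0.0282) and with LPS+ISO (−0.21, 0.0143).

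In counts, LPS+ISO at 4 h had 7 members called higher and 1 lower (all genes 14.4% and 15.6%), and LPS+PGE2 at 4 h 3 higher and 1 lower (15.2% and 16.5%). With the block within each time 8 members were called with LPS at 4 h (all genes 38.9%), 10 with LPS+ISO (39.0%) and 7 with LPS+PGE2 (39.7%). At 2 h 1 member was higher with LPS (all genes 8.88% higher, 7.01% lower), 1 with LPS+ISO (7.70% and 6.15%) and 3 with LPS+PGE2 (7.49% and 5.77%), and none was lower. The block within each time gave 1, 2 and 4 at 2 h, all higher (all genes 24.8%, 22.3% and 21.5% in either direction). Of the 3 called with LPS+PGE2 without the block, Rpl35 and Rps14 rest on set 1 alone: Rpl35 stood at 0.30, 0.00 and 0.00 and Rps14 at 0.27, 0.00 and 0.00. Each had a value on 2 of the 6 arrays of that group, and without set 1 both means were 0. The share of members called was below that of all genes in both directions at 4 h in each group with LPS. That count takes in the members at 0 on most arrays, whose means lie near 0. Among genes with a value on at least 44 arrays, members and all genes were called higher with LPS+ISO at 4 h in 17.5% and 17.6%, and lower in 2.5% and 19.0%. The differences in shares were not tested.

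**Figure D4:**
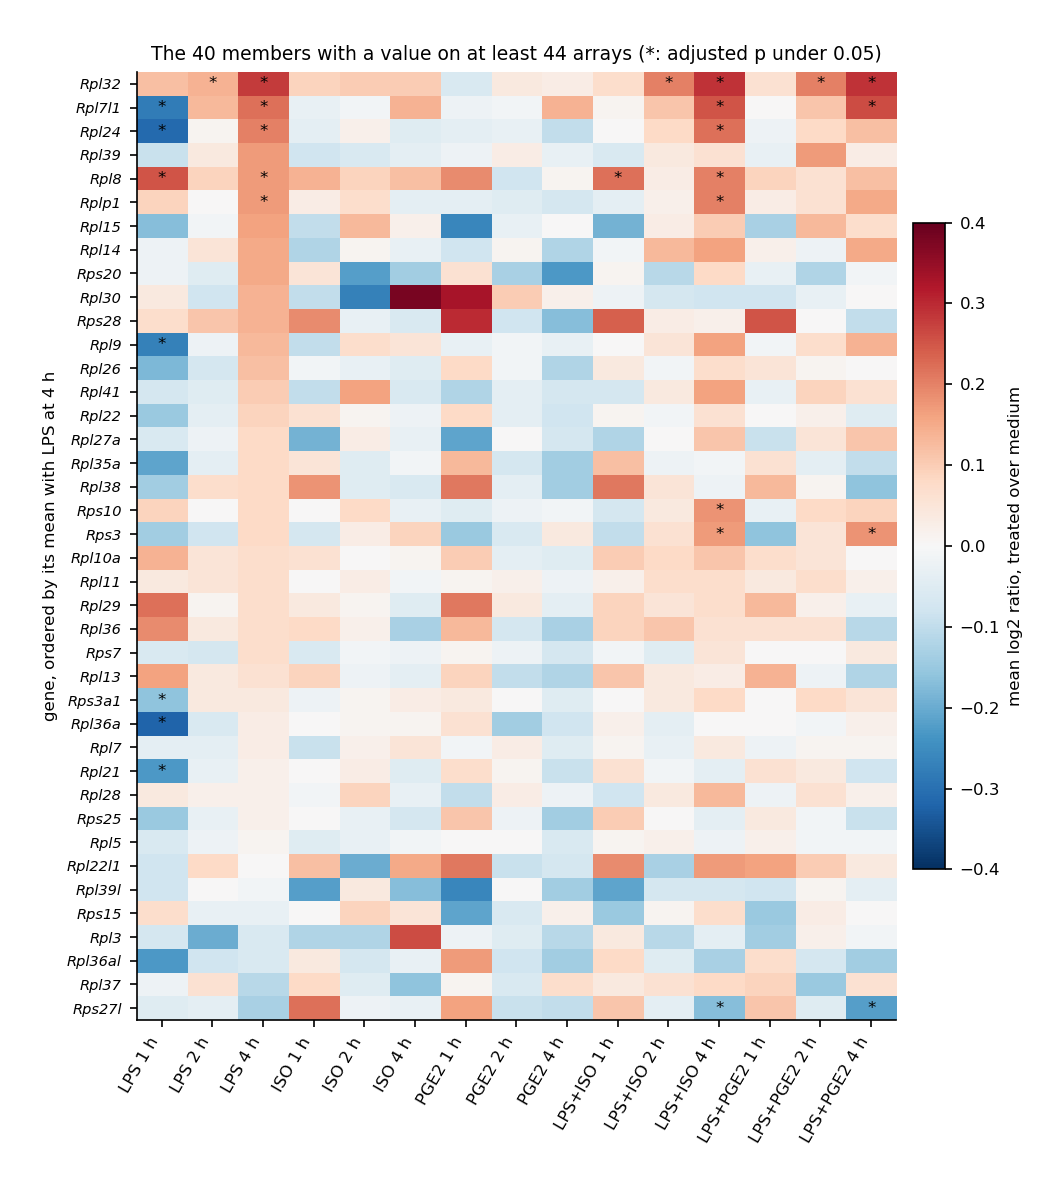
Mean log2 ratio, treated over medium, of the 40 members with a value on at least 44 arrays, in 15 groups, ordered by the mean with LPS at 4 h, with values called in the fit without a replicate block starred. Rpl32 is at the top with stars in all 6 LPS groups at 2 and 4 h, Rps27l is at the bottom, and columns without LPS hold no star.

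At 1 h with LPS, 6 members were called lower (8.57%, all genes 4.84%) and Rpl8 higher (1.43%, all genes 4.64%). With the block within each time 9 were lower and 4 higher, and 19.7% of all genes were called. The 6 were Rpl36a, Rpl24, Rpl7l1, Rpl9, Rpl21 and Rps3a1, with means from −0.32 to −0.16. They rest on set 1. Rpl36a stood at −0.98 in set 1 and at −0.08 and 0.11 in the others, Rpl24 at −0.71 against −0.09 and −0.13, and Rpl7l1 at −0.75 against −0.06 and −0.03. Rpl9 (−0.70 against −0.02 and −0.08), Rpl21 (−0.61 against −0.02 and −0.06) and Rps3a1 (−0.34 against −0.07 and −0.06) had the same shape. That set 1 lay below the other sets for each of the 6 is no separate result, since these values made the calls. Both arrays of set 1 gave low values for 5 of them, for example −1.03 and −0.93 for Rpl36a, whereas Rps3a1 was at 0 on 1 array and at −0.69 on the other. Without set 1, adjusted p was between 0.212 and 1 for these 6, the mean of Rpl36a became 0.01, and without set 3 it was between 0.0293 and 0.0898. Without set 1, 3 other members were called higher (Rpl32, Rps13 and Rpsa) and 1 lower (Rps23). Of these, Rps13, Rpsa and Rps23 had a value on 32, 18 and 26 arrays and were at 0 on most arrays. The share of all genes called without set 1 is not given here.

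That set stood apart for the members as a whole and for other genes. Among the 22 members with a value on every array, its quartiles lay at −0.41 and 0.25, a spread of 0.66, against 0.10 and 0.12 in sets 2 and 3. Over the 5195 genes measured as often, the quartile spread of set 1 was 0.47, against 0.15 and 0.19. Among the 22 members, 9 were below −0.25 in set 1 and 6 were above 0.25, among them Rpl29 at 0.66 and Rpl36 at 0.58. Set 1 was also the widest at 1 h with LPS+ISO, where members' quartiles were 0.03 and 0.33, and with ISO, PGE2 and LPS+PGE2. The part of this set's spread in the calls at 1 h was not tested beyond leaving it out. With LPS+ISO at 1 h Rpl8 was the 1 call (all genes 4.15% higher and 3.27% lower), and with LPS+PGE2 at 1 h there was none (4.70% and 2.99%). With LPS+PGE2, 5 members and 1976 of all 10518 genes had an unadjusted p under 0.05. With the block within each time 4 members were called with LPS+ISO and 2 with LPS+PGE2, and 17.3% and 16.9% of all genes.

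**Figure D5:**
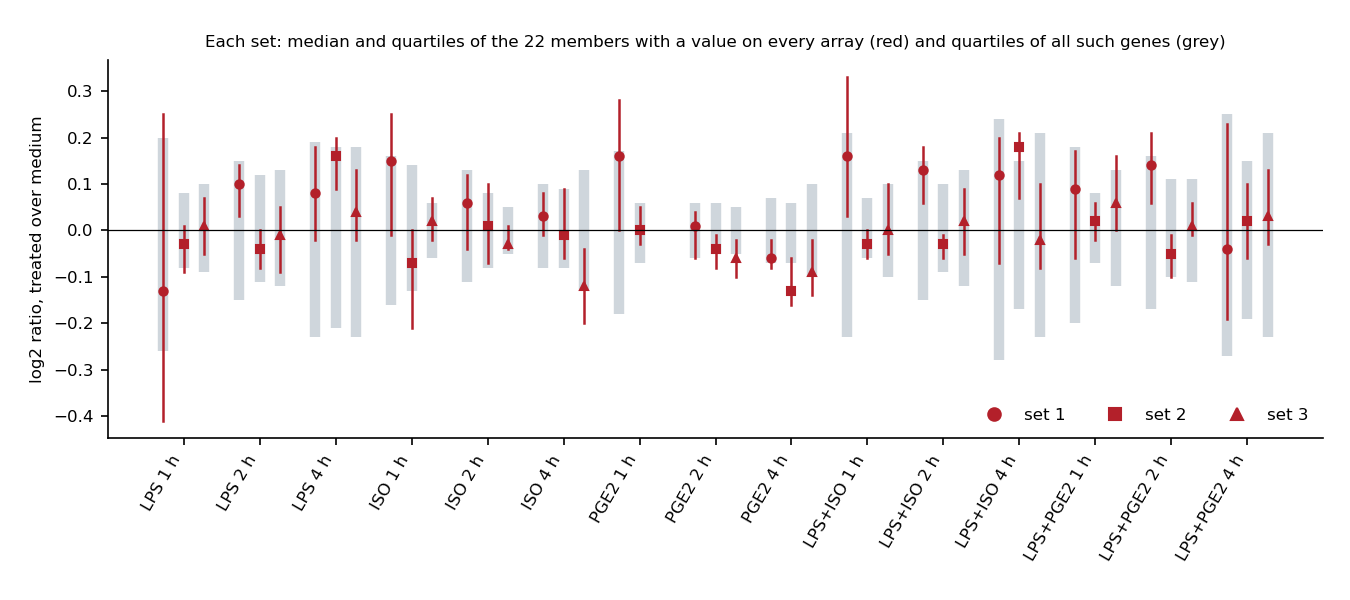
For each set, the median (symbol) and quartiles (line) of the 22 members with a value on every array, in red, over the quartiles of the 5195 genes with a value on every array, in grey, on the log2 scale of treated over medium. Set 1 of LPS at 1 h has the widest red line, from −0.41 to 0.25, and all 3 sets of PGE2 at 4 h have medians below 0.

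ISO and PGE2 without LPS gave no called member at any time without a replicate block. With the set number within each time as a replicate block, 4 members passed with ISO at 1 h (5.13% of all genes): Rps27l (0.22, adjusted p = 0.0163) and Rpl8 (0.14, 0.0386) higher, and Rpl27a (−0.19, 0.0138) and Rpl39l (−0.22, 0.0282) lower. With PGE2 at 1 h Rpl8 (0.20, adjusted p = 0.0273) and Rps28 (0.32, 0.0446) passed in that fit, beside 4.14% of all genes. At 2 and 4 h no member was called in it, with ISO (all genes 5.36% and 11.2%) or with PGE2 (1.71% and 5.45%), where 5, 8, 1 and 7 members had an unadjusted p under 0.05. In the fit without the block the following held. With ISO 5, 1 and 5 members had an unadjusted p under 0.05 at 1, 2 and 4 h, while 0.903%, 1.71% and 3.36% of all genes were called in either direction. With PGE2 the numbers were 7, 1 and 0, beside 0.323%, 0.456% and 1.14% of all genes. An unadjusted p under 0.05 was found for 1037, 1092 and 1688 of all 10518 genes with ISO. With PGE2 it was found for 1007, 574 and 1006. For the 40 members with a value on at least 44 arrays, the 95% confidence intervals of the group means stayed between −0.56 and 0.66 with ISO and between −0.57 and 0.68 with PGE2, so a change within these bounds is not excluded. The largest mean of all 15 groups was among them: Rpl30 with ISO at 4 h, at 1.02, −0.02 and 0.13, a mean of 0.38 ± 0.564 (SD, n = 3) that was not called (adjusted p = 0.143). Rpl3 had the same shape there, at 0.72, −0.03 and 0.10 (adjusted p = 0.227). With PGE2 at 4 h the medians of the 22 fully measured members were −0.06, −0.13 and −0.09 in the 3 sets, and 19, 19 and 17 of the 22 lay below 0, with no member called.

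At 2 h in the groups with LPS, the members' medians differed more between sets than between treatments. In set 1 their median was 0.10 with LPS, 0.13 with LPS+ISO and 0.14 with LPS+PGE2. In set 2 it was −0.04, −0.03 and −0.05, and in set 3 −0.01, 0.02 and 0.01. Sets of 1 number thus lay closer to each other across these treatments than the sets of 1 group did. Whether sets of the same number share cells or medium RNA is not stated.

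No member was called between a combination and LPS alone, at any time. The fit without a replicate block, used first here, does not pair sets of the same number. For LPS+ISO the share of all genes that differed was 0.0190% after 1 h, 0% after 2 h and 0.0951% after 4 h. For LPS+PGE2 it was 0% after 1 and 2 h and 0.0285% after 4 h, so limma made at most 10 calls in any of these. With so few calls among all genes, the lack of called members does not show a lack of change. At 1 h 12 members with LPS+ISO and 13 with LPS+PGE2 had an unadjusted p under 0.05, of which 11 and 12 lay higher than with LPS alone. Of all 10518 genes, 629 and 484 had such a p. Rpl24 differed by 0.31 (95% confidence interval 0.09 to 0.53, adjusted p = 0.814) and Rpl36a by 0.34 (0.05 to 0.62, adjusted p = 0.814) with LPS+ISO. Both genes stood low in set 1 of LPS at 1 h. Without set 1, which leaves fewer samples, 1 and 4 members had such a p. The numbers of all genes in that fit are not given here, so this fall is not a result about the members. At 2 and 4 h 0 to 2 members had such a p, beside 242 to 424 of all genes, and the differences of all 70 members were within 0.25 of 0. With a replicate block within each time no member was called either, and the share of all genes called in that fit is not given here.

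Between times, 4 members differed with LPS alone by the F test of limma (all genes 18.5%), 2 with LPS+ISO (17.6%) and 3 with LPS+PGE2 (17.8%), against 0 with ISO (0.589%) and 0 with PGE2 (0.00951%), where 3 and 4 members had an unadjusted p under 0.05. Of all 10518 genes, 1118 and 787 had such a p with ISO and PGE2. With the block within each time the numbers were 8 with LPS, 7 with LPS+ISO and 5 with LPS+PGE2 (all genes 29.4%, 30.3% and 30.2%), 0 with ISO (5.69%) and 2 with PGE2 (4.34%). Without it the 4 with LPS, Rpl24, Rpl7l1, Rpl9 and Rps3a1, were those low at 1 h. Rpl7l1 rose by 0.50 from 1 to 4 h and Rpl24 by 0.51, and these tests held without set 1 (adjusted p = 0.000576 and 0.0205), when the differences were 0.32 and 0.26. Those of Rpl9 and Rps3a1 were lost without any 1 set (adjusted p from 0.0619 to 0.146 and from 0.104 to 0.162). With LPS+PGE2 the 3 were Rps3, which went from −0.16 to 0.18, Rps27l, from 0.11 to −0.22, and Rpl32, from 0.06 to 0.29. With LPS+ISO they were Rps3 (−0.10 to 0.17) and Rps27l (0.11 to −0.17). Leaving out any 1 set ended both calls with LPS+ISO (0.0936 to 0.22) and that of Rpl32 (0.101 to 0.391). With LPS+PGE2 the call of Rps3 was lost without set 3 (0.181), and that of Rps27l without set 2 (0.137) or set 3 (0.0545).

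Beside the ribosomal proteins, the other parts of the translation machinery were read at 4 h from lists, none of which was tested as a set. At that time 14.3% of all genes were called higher and 16.4% lower with LPS, 30.7% in all, and 14.4% and 15.6% with LPS+ISO, 30.0% in all. With LPS alone 7 of 29 translation factors and ribosome partners were called higher and 1 lower (24.1% and 3.45%, adjusted p under 0.05), so that the share called in all, 27.6%, was close to that of all genes. The median was 0.075. With LPS+ISO, the comparison with most member calls, it was 9 and 2 (37.9% in all). There Etf1, the release factor, was highest of this list at 0.47 ± 0.137 (SD, n = 3) and Eif2s3x, a subunit of the initiation factor that brings the initiator tRNA, was next at 0.44 ± 0.432. Btf3, a subunit of the nascent chain complex, was lowest at −0.47 ± 0.0862, and Nap1l1, a histone chaperone with a TOP mRNA, stood at −0.21 ± 0.141. Of the 8 and 11 called genes of this list none reached a log2 ratio of 1.

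Genes of ribosome assembly were called higher in 13 of 50 cases and lower in 1 with LPS at 4 h, 28.0% in all and a median of 0.131, and in 8 and 2 with LPS+ISO, 20.0% in all. Neither share in all exceeded that of all genes, but the directions were uneven. With LPS 26.0% were called higher and 2.0% lower, against 14.3% and 16.4% of all genes. With LPS+ISO it was 16.0% and 4.0%, against 14.4% and 15.6%. These differences were not tested. With LPS+ISO the highest were Nop56, a core protein of box C/D snoRNPs, at 0.49 ± 0.349 (SD, n = 3) and Noc3l at 0.43 ± 0.304. The lowest were Nhp2 (−0.39 ± 0.122) and Gar1 (−0.30 ± 0.284), both of the box H/ACA snoRNPs. The mitochondrial ribosomal proteins were called in both directions, 7 higher and 10 lower of 62 with LPS (27.4%) and 5 and 9 with LPS+ISO (22.6%), below the shares of all genes. With LPS+ISO Mrpl52 was highest at 1.04 ± 0.0923 and Mrpl39 next at 0.37 ± 0.334, while Mrpl18 was lowest at −0.48 ± 0.24, followed by Mrps6 at −0.45 ± 0.0847.

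Of the 36 regulators of ribosome production, 7 were called higher and 9 lower with LPS at 4 h (44.4% in all, all genes 30.7%), and 9 and 11 with LPS+ISO (55.6%, all genes 30.0%). The list's median was 0.0 in both, and these differences in shares were not tested. Myc, which drives transcription of ribosomal protein and assembly genes, stood at 3.53 ± 0.333 (SD, n = 3, 11.6-fold, adjusted p = 1.31e-08 in the limma fit) with LPS+ISO. Mxd1, which competes with Myc for their partner Max, stood at 2.42 ± 0.49. Mnt, another such antagonist, was lowest at −1.27 ± 0.302, and Ddit4, an inhibitor of mTOR, stood at −1.23 ± 0.621. Over the same comparison the 40 often measured members ranged from −0.17 to 0.29.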

How the data were processed

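RNA of treated RAW 264.7 cells was hybridised against RNA of cells in medium on 2-colour custom arrays, each comparison in both dye orientations. The authors deposited 1 table of log2 ratios. How images were read, normalized and filtered was not given in the sources used here. Their log2 scale was read from the values and the direction from genes induced by LPS. Symbols were updated through Entrez identifiers, 13260 probes with 1 gene were averaged to 10518 genes, and the arrays of a pair were averaged to 1 value. Exact zeros entered as 0.

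A limma model held the 44 pair means with a term for each of the 15 groups (R 4.3.3, limma 3.58.1, statmod 1.5.0, lmFit and eBayes, 29 residual and 2.678 prior degrees of freedom). A group's ratio was tested against 0, which compares it with medium. The fit takes the pair means as independent. Those of the same set number and time deviated together across groups (mean r 0.377, from 0.028 to 0.766). The residual degrees of freedom are thus overstated, and p-values against medium may be too small. The spread is pooled over the groups, so a group whose own sets vary more can still pass. Tests are two-sided, with Benjamini-Hochberg adjustment over all genes and a threshold of 0.05. Called in the text means past that threshold. The fit was checked on simulated data: of genes changed by 0.25, 40% were recovered in a simulated LPS 4 h comparison of 10518 genes, and of those changed by 0.5, 92%. The simulation drew independent noise for each gene and set, and changed far fewer genes than were called with LPS at 4 h. These shares therefore need not hold for the data. Arrays give no read depth, and their number limits the precision.

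Members named are those called with 1 sign in all sets, up to 6 higher and 6 lower per comparison, and members listed for their roles or as paralogs. For other lists the 2 highest and 2 lowest called are named. Others (Rpl35, Rps14, Rps24, Rpl36a, Rpl30, Rpl3, Rpl29, Rpl36, Rps13, Rps23, Rpl14, Rpl27a and Rps28 among them) were chosen after their values were seen. Members and lists were chosen with earlier results of these data known.

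Sets with the same number at the same time deviated together in the combinations and LPS alone (r from 0.197 to 0.6 in every set), so these numbers pair them. Alternatives were zeros as missing, both arrays measured, centring, a dye term, only the groups compared, the set number as a replicate block, robust eBayes, a filter at 44 arrays, 1 probe per gene, each set left out and, added after seeing the data, a block within each time. A block within each time takes the shared deviation out of the spread, so its p-values against medium or between times leave that part out.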

Additional observations from a re-analysis of the deposited data

Results flagged for a closer look

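The responses of 7 members differed between 1, 2 and 4 h by the F test of limma, in 9 tests. With LPS alone these were Rpl7l1 (adjusted p = 0.00192, 4 h minus 1 h 0.50), Rpl24 (0.00237, 0.51), Rpl9 (0.0158, 0.40) and Rps3a1 (0.032, 0.19). With LPS+ISO they were Rps3 (adjusted p = 0.0409, 4 h minus 1 h 0.27) and Rps27l (0.0433, −0.28). With LPS+PGE2 they were Rps3 (adjusted p = 0.00734, 0.34), Rps27l (0.0123, −0.33) and Rpl32 (0.0492, 0.22). Whether these courses differ between treatments was not tested.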

How the results depend on the processing

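With only the groups of the comparison in the fit, which leaves fewer samples to estimate the spread, calls against medium went from 14 to 2 with LPS (Rpl32 and Rplp1 at 4 h), from 10 to 0 with LPS+ISO and from 7 to 0 with LPS+PGE2, and calls between times from 4, 2 and 3 to 0. With the set number within each time as a replicate block, chosen after seeing the data, calls against medium were 22 with LPS, 4 with ISO, 2 with PGE2, 16 with LPS+ISO and 13 with LPS+PGE2, and calls between times 8, 2 (PGE2), 7 and 5. With the set number as a replicate block over all times, 1 member was called with ISO, and the paired fits called 0 members between a combination and LPS alone. The dye term gave 1 call with ISO and 4 between times with LPS+ISO, where zeros as missing gave 0 and centring 1. Leaving out 1 set gave 3 to 12 calls against medium with LPS, 0 to 3 with ISO, 0 to 1 with PGE2, 3 to 12 with LPS+ISO and 3 to 6 with LPS+PGE2. Between times it gave 2 with LPS, 0 to 1 with ISO, 0 to 1 with LPS+ISO and 0 to 5 with LPS+PGE2. Without set 1 of PGE2 at 1 h, the remaining sample is assumed to vary like other groups. Rpl36a with LPS at 1 h, −0.32 with all sets, ranged from −0.53 (without set 3) to 0.01 (without set 1). Apart from the fewer samples of the narrower fits, the causes were not tested. The share of all genes called is given above only for the block within each time, against medium and between times. Whether calls of all genes changed alike in the other alternatives is not shown. Of the 31 calls against medium, 31 held under either block, 25 to 30 under 6 other alternatives, 28 of 28 with the filter at 44 arrays, and 17, 11 and 8 without set 1, 2 and 3.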
